A study of Homo sapiens with 14 samples.

Results

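miR-21 is represented by 2 entries of the 2848 in the deposited count table, hsa-miR-21-5p and hsa-miR-21-3p, the mature products of the 2 arms of one hairpin. The members were chosen by name, and both passed the filter on low counts that left 810 entries for testing. They were measured in PANC-1, an established human cell line derived from a carcinoma of the pancreatic duct, kept in medium with fetal bovine serum. Cells received proanthocyanidins from grape (PA, chains of flavan-3-ol units) at 20 µg/ml, or DMSO as the vehicle. Small RNA was counted in 14 libraries, an A and a B library for each of 7 groups. The DMSO groups were harvested at 0, 3, 12 or 24 h, and the PA groups at 3, 12 or 24 h. The series text speaks of a biological replicate, but nothing in the labels describes A and B as separate cultures, so p-values measure the spread between these libraries, which may be in part technical.

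A miRNA gene is transcribed into a long primary transcript, from which the nuclease Drosha releases a hairpin and the nuclease Dicer cuts a short duplex. One strand of the duplex, the guide, is usually kept in an Argonaute protein, while the opposite strand, the passenger, is mostly degraded. The guide then represses mRNAs that pair with its seed, the bases near its 5′ end. miR-21-5p is the usual guide of MIR21 and is known as a growth-promoting miRNA that is abundant in many carcinomas, pancreatic ones included. Its known targets include PDCD4 and TPM1. Transcription of MIR21 is known to respond to AP-1 and STAT3.

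The MIR21 hairpin lies on chromosome 17, 59841266 to 59841337, plus strand (GRCh38), and is 72 bases long, with miR-21-5p at its bases 8 to 29. In GENCODE v29 it lies inside the gene VMP1 on the same strand. It starts 174 bases beyond the end of the longest-reaching protein-coding VMP1 transcript, and overlaps 1 of 17 VMP1 transcripts, a retained-intron one. Among the 2370 mature miRNA names in the RefSeq table (GRCh38.p14), only miR-590-5p had the same bases 2 to 8 as miR-21-5p. The pair is shown because miRNAs with one seed are known to share many targets. The seed (bases 2 to 8) is in capitals, and both sequences run 5′ to 3′. miR-21-5p comes from chr17:59841273-59841294 (plus strand) and miR-590-5p from chr7:74191213-74191234 (plus strand).
miR-21-5p: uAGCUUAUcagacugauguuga
miR-590-5p: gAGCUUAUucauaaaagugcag

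The 14 libraries held between 1032391 (DMSO 12 h B) and 3111014 (PA 3 h B) counts. CPM below is the count scaled to a common library size, with TMM factors (0.886 to 1.08) that centre most entries. The epithelial miR-200 family was scarce, at 50.02 to 85.8 CPM in sum, with all 5 members detected. Acinar and islet miRNAs summed to 2.17 to 10.2 CPM, those of blood-forming cells to 1.64 to 6.37 CPM, and those of muscle, liver and neurons to 0 to 7.43 CPM. Red blood cell miRNAs, led by miR-486-5p, summed to 296 to 591 CPM, and fibroblast and endothelial ones, led by miR-126-3p, to 401 to 873 CPM. No marker found in the table was at 0 in all libraries. In such data fewer cells that carry a miRNA and less of it per cell cannot be told apart.

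miR-21-5p was the most abundant entry in each of the 14 libraries. Its counts ran from 156328 to 627353, which was 14.6% to 23.1% of a library with a median of 18.3%. At this depth the 95% Wilson intervals of the shares were at most 0.0715 percentage points to either side, and they cover counting error only, since copied reads are not independent molecules. miR-100-5p, an mTOR-repressing miRNA, came next in every library, and miR-21-5p exceeded it by 1.13-fold (PA 24 h A) to 2.32-fold (DMSO 0 h A). The entries that followed by total count were miR-27a-3p (7.28% of all counts), miR-29a-3p (5.52%), miR-22-3p (4.58%) and miR-27b-3p (3.95%), against 18.7% for miR-21-5p and 11.1% for miR-100-5p.

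miR-21-3p, the passenger arm, was itself among the most abundant entries. It ranked between 6 and 13 in a library, with counts of 16888 to 114988, or 1.64% to 4.26% of the library (median 2.73%). Of the 162 hairpin names whose 5p and 3p arms both passed the filter, no other had a less abundant arm with as many counts. The arms together took 16.8% (DMSO 12 h B) to 26.0% (DMSO 0 h A) of a library.

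**Figure D1:**
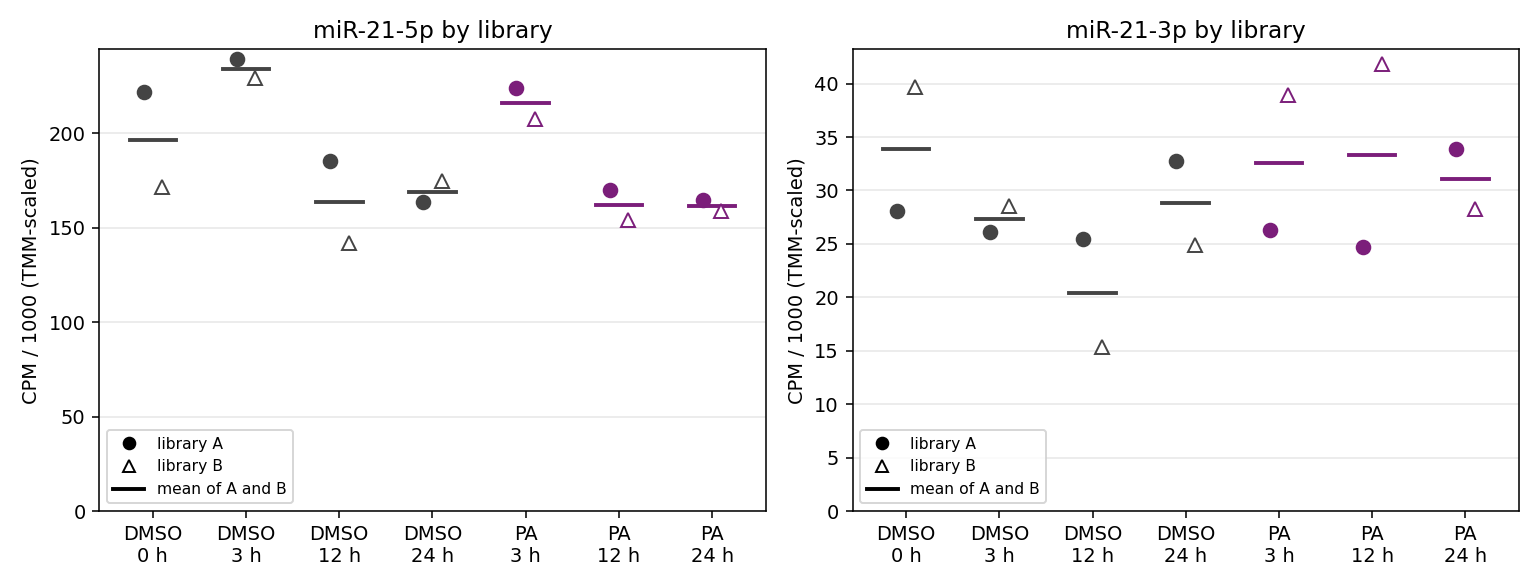
CPM divided by 1000 of miR-21-5p (left) and miR-21-3p (right) for each library, by group. Filled circles are library A, open triangles library B and bars their mean. miR-21-5p is highest in the DMSO 3 h and PA 3 h libraries and in DMSO 0 h A, while for miR-21-3p the A and B libraries of a group can lie as far apart as the groups.

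With PA, miR-21-5p did not pass the test at any time. At 3 h it had 239598 and 229098 CPM in DMSO A and B, and 224140 and 207789 CPM in PA. The PA libraries lay below the DMSO libraries without overlap, and 32.3% of all entries were likewise separate at 3 h, in one direction or the other. The log2 fold change was -0.12 ± 0.15 (SE; 95% interval -0.44 to 0.21; edgeR adjusted p = 1). At 12 h DMSO had 185261 and 142163 CPM and PA had 169910 and 153970 CPM, so both PA values lay between the DMSO ones, where 52.1% of all entries were separate. The log2 fold change was -0.02 ± 0.15 (interval -0.34 to 0.31; edgeR adjusted p = 0.977). At 24 h DMSO had 163907 and 174552 CPM and PA had 164523 and 158776 CPM, which overlap, where again 52.1% of entries were separate. The log2 fold change was -0.07 ± 0.15 (interval -0.39 to 0.26; edgeR adjusted p = 0.852).

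Averaged over 3, 12 and 24 h, the level of miR-21-5p with PA differed by -4.46% from DMSO, with a 95% interval of -16.3% to 9.02% (log2 fold change -0.07 ± 0.09, edgeR adjusted p = 0.829). At single times the interval was wider: -26.5% to 15.5% at 3 h, -21.1% to 24.0% at 12 h and -23.8% to 19.7% at 24 h. In the table as a whole 0.247% of 810 entries passed at 3 h, 11.1% at 12 h and 6.67% at 24 h, and 0% of 808 passed for the mean, where 118 had an unadjusted p under 0.05. A joint test for a PA effect that varies with time gave an adjusted p of 0.955 for miR-21-5p and of 0.563 for miR-21-3p in edgeR, where 5.93% of entries passed.

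miR-21-3p had higher means with PA at each time and likewise did not pass. At 3 h it had 26091 and 28564 CPM in DMSO A and B, and 26278 and 38925 CPM in PA. Only PA 3 h B stood above the other 3. The log2 fold change was 0.25 ± 0.28 (95% interval -0.34 to 0.85; edgeR adjusted p = 1). At 24 h it had 32714 and 24915 CPM in DMSO and 33928 and 28273 CPM in PA, which overlap. The log2 fold change there was 0.11 ± 0.28 (interval -0.49 to 0.71; edgeR adjusted p = 0.86), and it was -0.08 when libraries were scaled by total counts alone.

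The 12 h comparison of miR-21-3p was the widest. DMSO 12 h A and B had 25445 and 15358 CPM, and PA 12 h A and B had 24683 and 41869 CPM. DMSO 12 h B was thus the lowest and PA 12 h B the highest of all 14 libraries, while the A libraries nearly coincided. The log2 fold change was 0.71 ± 0.28 (interval 0.11 to 1.30; unadjusted p = 0.024, edgeR adjusted p = 0.122), so the arm did not pass in a comparison where 11.1% of entries did. It passed in edgeR without the filter on low counts (0.81, adjusted p = 0.00566), without DMSO 12 h A (1.13, 0.0495) and without PA 12 h A (1.08, 0.0463). Without DMSO 12 h B it was 0.40 (adjusted p = 0.571) and without PA 12 h B 0.34 (0.596). Against the mean of DMSO at 0, 3 and 24 h the log2 fold change at 12 h was 0.16 (edgeR adjusted p = 0.794), and with only the 4 libraries compared it was 0.68 (0.247).

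The summed CPM of all 6 lists of cell type markers was at its highest or lowest among the DMSO groups in DMSO 12 h. How often this held over all entries was not counted. The lists that sum to a few CPM rest on few reads, and DMSO 12 h B had the fewest counts of all libraries (1032391). Red blood cell miRNAs summed to 565 CPM there, against 324 to 388 CPM as means of the other DMSO groups and 454 CPM in PA 12 h. Fibroblast and endothelial ones summed to 423 CPM, against 700 to 794 CPM and 602 CPM, and epithelial ones to 52.9 CPM, against 61.2 to 73.3 CPM and 69.3 CPM. The sums were 9.67 CPM for acinar and islet ones, against 3.96 to 4.94 CPM and 7.91 CPM, and 5.46 CPM for those of blood-forming cells, against 1.69 to 3.68 CPM and 4.01 CPM. Those of muscle, liver and neurons came to 2.67 CPM, against 3.14 to 5.36 CPM and 2.10 CPM. Their part in the 12 h difference of miR-21-3p was not tested.

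Averaged over the times, the log2 fold change of miR-21-3p was 0.36 ± 0.17 (unadjusted p = 0.0499, edgeR adjusted p = 0.341), or 28.0% higher with an interval of 0.143% to 63.6%. Without the 12 h groups the mean was 0.21 (adjusted p = 0.539), and with each library left out in turn it ran from 0.23 to 0.47.

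**Figure D2:**
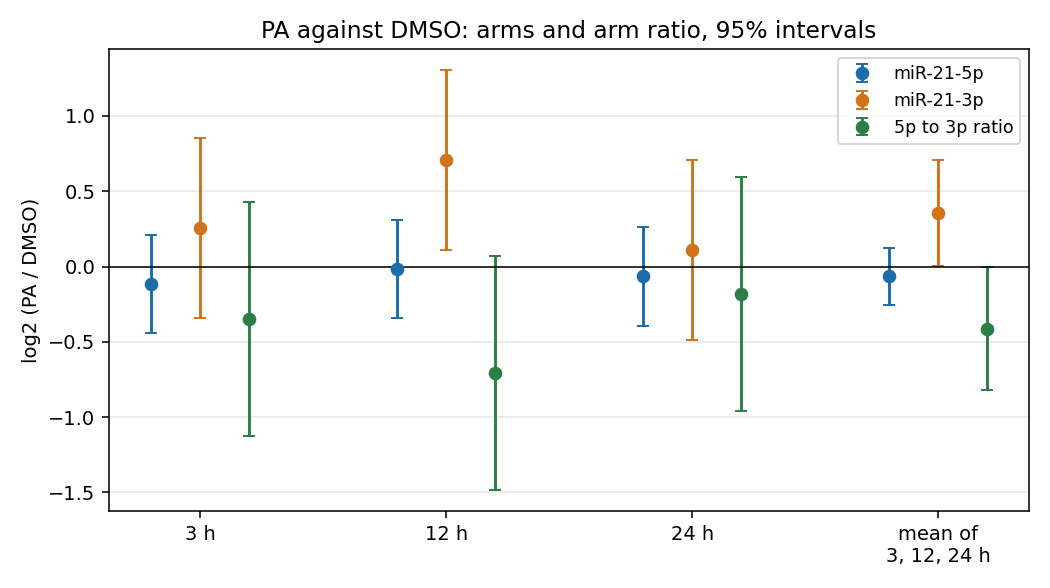
Log2 fold change of PA over DMSO (points) with 95% intervals (bars) for miR-21-5p, miR-21-3p and the 5p to 3p ratio, at 3, 12 and 24 h and for the mean of the times. The intervals of miR-21-5p include 0 throughout, and those of miR-21-3p exclude 0 at 12 h and, with a lower bound of 0.0021, for the mean.

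The ratio of the arms within a library does not depend on scaling. miR-21-5p exceeded miR-21-3p in every library, by 3.68-fold in PA 12 h B to 9.26-fold in DMSO 12 h B, with a median of 6.94. The passenger thus made up 9.75% to 21.4% of the counts of the hairpin. For DMSO the A and B ratios were 7.90 and 4.33 (0 h), 9.18 and 8.02 (3 h), 7.28 and 9.26 (12 h), and 5.01 and 7.01 (24 h). For PA they were 8.53 and 5.34 (3 h), 6.88 and 3.68 (12 h), and 4.85 and 5.62 (24 h). The highest ratios were those of DMSO 12 h B and DMSO 3 h A, and the lowest those of PA 12 h B and DMSO 0 h B.

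The mean ratio was lower with PA than with DMSO at each of the 3 times, but the libraries overlapped at 3 and 24 h, where 35.2% and 53.1% of the 162 arm pairs were separate. At 12 h both PA ratios lay below both DMSO ratios, and 46.3% of the arm pairs were separate in one direction or the other. In limma the log2 ratio differed between PA and DMSO by -0.35 ± 0.36 at 3 h (SE; adjusted p = 0.997), -0.71 ± 0.36 at 12 h (0.242) and -0.18 ± 0.36 at 24 h (0.855). None of these passed. Of all pairs 0% passed at 3 and 24 h, with 1 and 26 at an unadjusted p under 0.05, and 4.94% passed at 12 h. For the mean over the times the difference was -0.41 ± 0.19 (interval -0.82 to -0.0041; unadjusted p = 0.048, limma adjusted p = 0.344), where 0% passed and 23 pairs had an unadjusted p under 0.05. With each library left out in turn the difference ran from -0.69 to -0.0089 at 3 h, from -1.16 to -0.25 at 12 h and from -0.50 to -0.26 for the mean. An exact two-sided permutation test of treatment within time over the 12 libraries, whose smallest possible p is 0.00926, gave p = 0.0833 for the ratio (0.148 adjusted over 4 tests).

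**Figure D3:**
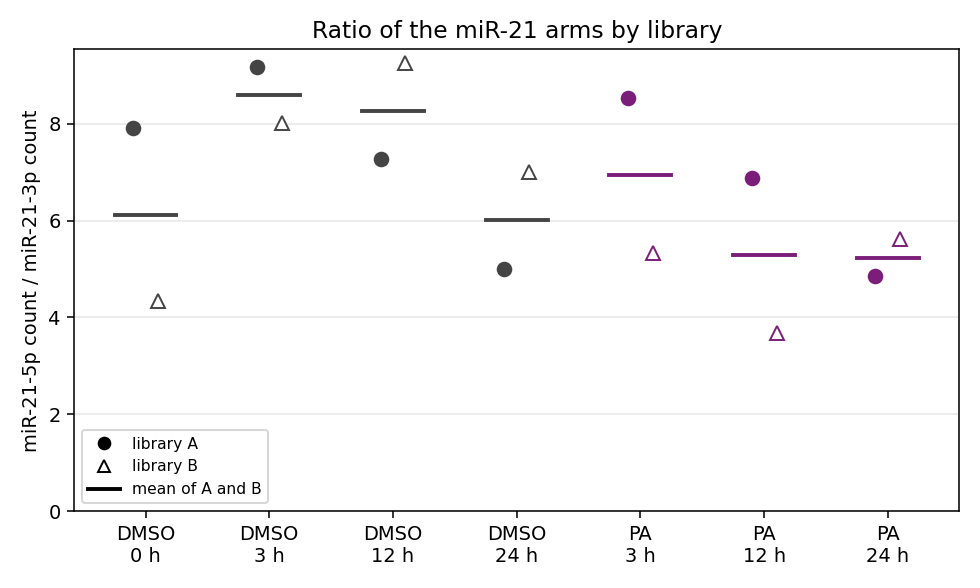
Count of miR-21-5p divided by that of miR-21-3p in each library, by group, with library A as filled circles, library B as open triangles and the mean as a bar. The ratio runs from 3.68 to 9.26, and the A and B libraries of DMSO 0 h, PA 3 h and PA 12 h lie far apart.

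As a share of all counts, miR-21-5p looked somewhat different from its scaled level. The share was 22.7% and 22.0% in DMSO 3 h A and B against 22.2% and 19.7% in PA, and 19.0% and 15.1% in DMSO 12 h against 17.5% and 15.3% in PA. At 24 h it was 17.4% and 18.1% in DMSO and 14.6% and 15.3% in PA, without overlap, and the shares of 55.9% of all entries were separate there in one direction or the other. The TMM factors were 1.06 and 1.03 in DMSO 24 h and 0.886 and 0.962 in PA 24 h, and at 24 h the median over all entries moved from -0.01 with TMM to -0.19 with total counts. With total counts the log2 fold change of miR-21-5p at 24 h was -0.25 (edgeR adjusted p = 0.296).

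Over the 12 libraries the share of miR-21-5p was 0.912-fold that of DMSO (exact permutation p = 0.111, two-sided; adjusted p = 0.148 over 4 tests). Its counts relative to all other counts were 0.894-fold those in DMSO (exact permutation p = 0.102, adjusted 0.148), and the share of miR-21-3p was 1.21-fold (exact permutation p = 0.222, adjusted 0.222). None of these passed.

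The order of the group means of miR-21-5p ran from DMSO 3 h (234348 ± 7425 CPM; SD, n = 2) through PA 3 h (215964 ± 11562), DMSO 0 h (196738 ± 35501), DMSO 24 h (169229 ± 7527), DMSO 12 h (163712 ± 30475) and PA 12 h (161940 ± 11271) to PA 24 h (161650 ± 4064). Of the 6 pairs of neighbours in this order only the first 2 groups, DMSO 3 h and PA 3 h, did not overlap. For miR-21-3p the order ran from DMSO 0 h (33854 ± 8183 CPM) to DMSO 12 h (20401 ± 7133), and 5 of the 6 neighbouring pairs overlapped. DMSO 3 h and DMSO 12 h, at the low end, did not overlap, and 52.2% of all entries were separate between these groups. The groups of the arm ratio overlapped with their neighbours in all 6 cases.

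In the vehicle alone neither arm passed against DMSO 0 h. For miR-21-5p the log2 fold change was 0.25 at 3 h (edgeR adjusted p = 0.613), -0.27 at 12 h (0.299) and -0.22 at 24 h (0.487), where 0%, 12.7% and 3.58% of entries passed. At 3 h, 70 entries had an unadjusted p under 0.05. For miR-21-3p it was -0.31 (edgeR adjusted p = 0.706), -0.73 (0.103) and -0.23 (0.703). At 12 h miR-21-3p passed without the filter on low counts (-0.76, adjusted p = 0.0131) and without DMSO 12 h A (-1.13, 0.044). Without DMSO 12 h B it was -0.41 (edgeR adjusted p = 0.568) and without DMSO 0 h B -0.45 (0.47). These comparisons share the DMSO 0 h libraries, whose A and B had 28068 and 39640 CPM of this arm.

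Within PA, miR-21-5p had lower means at 12 and 24 h than at 3 h and did not pass. Its log2 fold change against PA 3 h was -0.42 ± 0.15 at 12 h (95% interval -0.74 to -0.09; unadjusted p = 0.016, edgeR adjusted p = 0.375) and -0.42 ± 0.15 at 24 h (-0.74 to -0.09; 0.0154, adjusted 0.167). Neither passed over all entries, of which 0% passed at 12 h, with 82 at an unadjusted p under 0.05, and 3.95% at 24 h. Both PA 12 h and both PA 24 h libraries lay below both PA 3 h libraries, in comparisons where 48.5% and 48.3% of all entries were separate in one direction or the other. miR-21-3p had log2 fold changes of 0.03 and -0.07 in the same comparisons (edgeR adjusted p = 1 and 0.927). The comparisons share the PA 3 h libraries and are not separate evidence. Lower means of miR-21-5p after 3 h were not particular to PA. In DMSO they were 234348 CPM at 3 h, 163712 CPM at 12 h and 169229 CPM at 24 h. The PA effect on miR-21-5p differed from that at 3 h by 0.10 at 12 h (edgeR adjusted p = 0.876) and by 0.05 at 24 h (0.966).

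The spread between libraries A and B was wider for the passenger than for the guide. The within-group SD of log2 CPM, pooled over the 7 groups, was 0.15 for miR-21-5p and 0.37 for miR-21-3p. Among the 18 entries with a mean of at least 10000 CPM the median was 0.15, and miR-21-3p had the largest value and miR-21-5p ranked 8. This limit, like that for arm pairs below, was set after values were seen. Less abundant entries reached larger values, such as miR-4454 (0.45 at a mean of 5094 CPM). Counting error is small at the depth of miR-21-3p, with at most 0.0372 percentage points to either side of its share. Likewise, among the 8 arm pairs with at least 1000 mean counts in each arm, miR-21 had the largest within-group SD of the log2 ratio, 0.420, next to miR-221 (0.416), with a median of 0.248 and a lowest value of 0.115 for miR-374a. Library A was higher than B in 6 of 7 groups for miR-21-5p, in 3 for miR-21-3p and in 4 for the ratio.

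**Figure D4:**
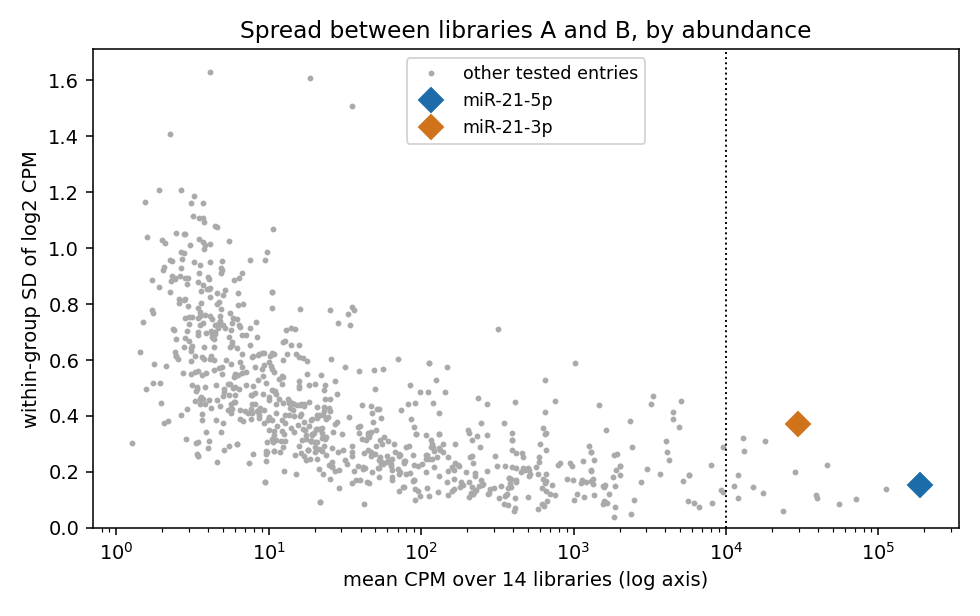
Within-group SD of log2 CPM, pooled over the 7 groups, against mean CPM (log axis) for the 810 entries tested. The dotted line marks 10000 CPM, and to its right miR-21-3p (0.37) has the largest SD, while miR-21-5p (0.15) lies at the middle of these 18 entries.

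The other miRNA found with the miR-21-5p seed hardly contributed. Only names with a sequence were searched, and none was at hand for miR-21-3p, so its seed was not searched. miR-590-5p had 7 to 44 counts in a library (313 in all), and a median of 10.4 CPM. miR-21-5p had 17074 times as many counts and made up 99.994% of the counts of this pair. With PA the log2 fold changes of miR-590-5p were 0.02 at 3 h (edgeR adjusted p = 1), 0.23 at 12 h (0.803) and 0.03 at 24 h (0.98), and none passed.

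Over the 14 libraries Pearson's r between the log2 CPM of the arms was 0.09. Of 210 named miRNAs with a mean of at least 100 CPM, those most like miR-21-5p over the 14 libraries were miR-30c-5p (r = 0.90), miR-29a-3p (0.88), miR-130a-3p (0.82), let-7a-5p (0.81) and miR-26b-5p (0.77). Those most like miR-21-3p were miR-136-3p (0.86), miR-374a-5p (0.81), miR-101-3p (0.79), miR-374a-3p (0.76) and miR-30e-5p (0.76). These values are descriptions. The 14 points share libraries and TMM factors, and the A and B differences alone had the same sign as those of the member in 5 to 7 of 7 groups.

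The miRNAs most like either arm are printed to show that 2 of them share a seed with each other. That none with a sequence shares the miR-21-5p seed was fixed in advance. miR-590-5p, the only other name found with that seed, had a mean of 10.7 CPM, below the 100 CPM asked of candidates. miR-30c-5p, most like the guide, and miR-30e-5p, among those most like the passenger, both have the miR-30 seed (bases 2 to 8, in capitals). Next to the other candidates these entries were low in G and C. The 4 with a sequence had a median GC content of 38.6% for miR-21-5p and of 37.1% for miR-21-3p, against 47.6% over 190 of the 210 candidates, and miR-21-5p itself had 36.4%.
miR-30c-5p: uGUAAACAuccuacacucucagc
miR-29a-3p: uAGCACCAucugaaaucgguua
let-7a-5p: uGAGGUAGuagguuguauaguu
miR-26b-5p: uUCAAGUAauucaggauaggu
miR-136-3p: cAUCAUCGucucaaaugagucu
miR-101-3p: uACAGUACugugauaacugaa
miR-374a-3p: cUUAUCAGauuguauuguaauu
miR-30e-5p: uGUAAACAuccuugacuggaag

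Some other miRNAs of the regulatory setting of miR-21 passed at single times, and neither arm of miR-21 did. No test compared their changes with those of miR-21. At 12 h the log2 fold change of miR-21-3p, which did not pass, was 0.71, as large as that of miR-9-5p below, which passed. Among 15 miRNAs linked to AP-1, STAT3 or NF-kB, which include both arms of miR-21, 0 passed at 3 and 24 h. At 12 h 1 rose and 3 fell. Over all entries 0.247% passed at 3 h, 11.1% at 12 h and 6.67% at 24 h. miR-9-5p, which targets NFKB1, rose (log2 fold change 0.67). miR-146a-5p (-0.62) and miR-146b-5p (-1.40), feedback repressors of TRAF6 and IRAK1, and miR-221-3p (-0.83), which targets the cell cycle inhibitor CDKN1B, fell. The median of this list was -0.01, -0.02 and -0.02 at 3, 12 and 24 h, against -0.01, -0.06 and -0.01 over all entries. These 4 miRNAs were named because they passed at 12 h, which by itself favours an extreme DMSO 12 h mean. How many of all entries shared the pattern described next was not counted. In each of the 4 the DMSO 12 h mean lay outside the DMSO 3 and 24 h means, on the side that adds to the difference. It was 574 CPM for miR-146b-5p, against 209 and 225 CPM in DMSO at 3 and 24 h and 217 CPM in PA 12 h. For miR-221-3p it was 19074 CPM, against 12670 and 13428 CPM and 10730 CPM, for miR-146a-5p 59150 CPM, against 36038 and 43746 CPM and 38544 CPM, and for miR-9-5p 1206 CPM, against 1622 and 1558 CPM and 1914 CPM.

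Of 15 miRNAs reported high in pancreatic ductal carcinoma, miR-21-5p among them, 0 passed at 3 h, 4 rose and 1 fell at 12 h, and 2 rose at 24 h, next to 0.247%, 11.1% and 6.67% of all entries that passed in either direction. miR-210-3p, the hypoxia-induced miRNA (1.36), miR-301a-3p (1.04), miR-27a-3p (0.94) and miR-23a-3p (0.87) rose at 12 h, and miR-221-3p fell. These were also named for passing at 12 h, with the same limit, and here too the DMSO 12 h mean lay outside those of DMSO 3 and 24 h. It was 41400 CPM for miR-27a-3p, against 73157 and 68015 CPM and 79459 CPM in PA 12 h, and 10848 CPM for miR-23a-3p, against 18274 and 16710 CPM and 19815 CPM. For miR-210-3p it was 930 CPM, against 1418 and 2163 CPM and 2391 CPM, and for miR-301a-3p 54.5 CPM, against 110 and 91.3 CPM and 110 CPM. At 24 h miR-100-5p (0.56, from 93134 to 137446 CPM) and miR-27a-3p (0.55, from 68015 to 99262 CPM) rose. They are the entries next to miR-21-5p in abundance. miR-21-5p exceeded miR-100-5p by 1.13-fold and 1.23-fold in PA 24 h A and B, against 1.77-fold and 1.86-fold in DMSO 24 h. Such closeness was not particular to PA 24 h. At 12 h the values were 1.42-fold and 1.13-fold in DMSO A and B and 1.73-fold and 1.19-fold in PA. The list medians were -0.04, 0.27 and -0.02 at 3, 12 and 24 h, against -0.01, -0.06 and -0.01 over all entries.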

How the data were processed

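The authors deposited whole-number read counts per mature miRNA entry for the 14 libraries, and these counts were the input. The submitters' processing notes name bcl2fastq, Bowtie, edgeR and GRCh38. What each tool did, the versions, the annotation release and the handling of multiple mapping are not given in the sources used here. Counts entered edgeR 4.0.16 (R 4.3.3; robust quasi-likelihood F test, TMM) after filterByExpr (minimum count 10, minimum total 15), in 1 fit of all 14 libraries by group. The mean effect was fitted on 12 libraries with time as a factor. Arm ratios, log2((5p + 0.5)/(3p + 0.5)), were fitted with limma 3.58.1 over 162 pairs. Adjusted p-values are Benjamini-Hochberg over all entries or pairs, with a threshold of 0.05. Library depth of 1032391 to 3111014 counts limits scarce entries far more than miR-21. Scripts were tested on simulated data. Named entries are the members, those that share the miR-21-5p seed, the 5 most like each arm, neighbours in abundance, and list members that passed; 1 list is not reported here. The members and lists were chosen with earlier results of these data known, and the abundance limits of the spread comparison after values were seen. Alternatives covered scaling, filter, DESeq2 1.42.0, the libraries fitted and left-out libraries. Sequences are from RefSeq, which held 597 of the 682 tested named entries.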

Additional observations from a re-analysis of the deposited data

How the results depend on the processing

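Of 181 alternative values other than those that leave out a library, 174 kept their direction and side of the threshold. Without the filter on low counts, miR-21-3p passed at 12 h (0.81) and for DMSO 12 h against 0 h (-0.76), and miR-21-5p changed sign with PA at 12 h (0.094) and for the PA effect at 24 h minus 3 h (-0.048). With total counts, miR-21-3p at 24 h (-0.078) and the 24 h minus 3 h difference of miR-21-5p (-0.15) changed sign. Against DMSO at the other times miR-21-5p at 3 h was 0.30. That comparison leaves out DMSO 3 h (mean 234348 CPM), which lay above PA 3 h (215964 CPM). It uses DMSO at 0, 12 and 24 h (196738, 163712 and 169229 CPM), which lay below PA 3 h. Why DMSO differed between times was not tested. With DESeq2 the 12 h value of miR-21-3p was 0.67 (adjusted p = 0.0738).

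With each library left out in turn, 406 of 436 values kept direction and call. PA against DMSO ranged from -0.035 to 0.51 (3 h), 0.34 to 1.13 (12 h) and -0.051 to 0.34 (24 h) for miR-21-3p. For miR-21-5p it ranged from -0.18 to 0.20 (12 h) and -0.094 to 2.46e-05 (24 h), and the arm ratio from -0.69 to -0.0089 (3 h), -1.16 to -0.25 (12 h) and -0.42 to 0.059 (24 h). miR-21-3p ranged from -1.13 to -0.41 and -0.48 to 0.042 in DMSO 12 and 24 h against 0 h, and from -0.37 to 0.35 and -0.31 to 0.23 in PA 12 and 24 h against 3 h. The change of the PA effect from 3 h ranged from -0.10 to 0.31 (12 h) and -0.011 to 0.14 (24 h) for miR-21-5p, and from -0.37 to 0.16 (24 h) for miR-21-3p. Where 1 library was left in a group, it was assumed to vary like the other groups.

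The labels do not say whether the letters A and B pair the samples. Over 21 pairs of groups the correlation of the A minus B differences ran from -0.17 to 0.11, and 1 exceeded 0.1. No strong shared difference between the letters was thus visible over all entries, which cannot show whether the libraries were paired. With the letter as a replicate block, miR-21-3p at 12 h was 0.68 (edgeR adjusted p = 0.164), and no call changed. With 2 libraries a group the standard error was 0.15 for miR-21-5p and 0.28 for miR-21-3p on the log2 scale.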
